A study of Mus musculus with 11 samples.

Results

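Acute phase and secreted inflammation proteins are represented here by 10 genes, Saa1, Saa2, Saa3, Lcn2, Serpina3n, Serpina3f, Lrg1, Hp, Orm1 and Ptx3, found by gene name among the 55350 genes listed in the pancreas and adipose count tables. All 10 were listed in both tables. The study sequenced RNA of 5 pancreas samples (2 control, 3 with obesity-related alcohol-induced acute pancreatitis, OA-AP) and of 6 epididymal adipose samples (3 control, 3 OA-AP), all from wild type C57BL/6 at 16 weeks of age, and male C57BL/6J by the methods. For 12 weeks controls were kept on chow (10 kcal% fat) and OA-AP mice on a high-fat diet (60 kcal% fat), after which controls were injected intraperitoneally with saline and OA-AP mice with 2 g/kg ethanol, 2 times at an interval of 1 h. Tissue was taken 12 h after the first injection. Diet, ethanol and pancreatitis differed together between the groups and cannot be told apart, since no mice given only the diet or only ethanol are among the samples analysed here.

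Acute phase proteins are plasma proteins whose concentration rises within hours of injury or infection. Most are made by the liver when interleukin-6 (IL-6) activates STAT3 and interleukin-1 (IL-1) activates NF-kB and C/EBP factors in hepatocytes, but adipocytes, epithelia, macrophages and neutrophils also express many of them. In clinical acute pancreatitis, circulating acute phase proteins are used as severity markers, and adipose tissue is a recognised source of serum amyloid A and haptoglobin in obesity.

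The promoters of the members that were called in both tissues, with that of Saa2 beside its near copy Saa1, are shown because these members rose in both tissues, Saa2 being untested in pancreas. Sequences came from RefSeq (GRCm38.p6), which had entries for 8 of the 10 genes. Hp and Orm1 had none. The search covered the 250 bases before each start, on both strands, for TTGCNNAA (C/EBP), GGG followed by any 2 bases and TTTCC (NF-kB), and TTCNNNGAA (STAT). Capitals mark matches, and for all genes but Lcn2 stretches that an annotated exon of the same gene covers are left out of what is shown. For Lcn2 only 30 bases around the match are shown, without that check. They lie inside the annotated gene (chr2:32384633-32388252). Saa1 lies at chr7:46742981-46743230 (minus strand), Saa2 at chr7:46751583-46751789 (plus), Saa3 at chr7:46715701-46715926 (minus), Serpina3n at chr12:104406458-104406707 (plus), Lrg1 at chr17:56122002-56122196 (minus) and the 30 bases of Lcn2 at chr2:32387937-32387966 (minus).
Saa1: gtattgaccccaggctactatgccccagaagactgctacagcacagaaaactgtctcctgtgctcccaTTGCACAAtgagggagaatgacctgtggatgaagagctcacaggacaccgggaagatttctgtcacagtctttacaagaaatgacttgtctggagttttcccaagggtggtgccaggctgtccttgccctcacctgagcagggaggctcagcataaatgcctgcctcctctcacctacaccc
Saa2: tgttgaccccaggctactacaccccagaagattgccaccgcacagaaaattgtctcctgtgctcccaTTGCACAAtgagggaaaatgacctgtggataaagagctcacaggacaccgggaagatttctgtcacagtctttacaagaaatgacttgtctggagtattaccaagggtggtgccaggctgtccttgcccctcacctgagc
Saa3: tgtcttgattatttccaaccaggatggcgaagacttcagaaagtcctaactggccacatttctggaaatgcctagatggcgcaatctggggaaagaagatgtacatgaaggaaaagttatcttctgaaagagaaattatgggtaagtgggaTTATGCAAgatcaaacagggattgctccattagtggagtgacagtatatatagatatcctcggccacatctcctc
Lcn2: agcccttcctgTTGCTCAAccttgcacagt
Serpina3n: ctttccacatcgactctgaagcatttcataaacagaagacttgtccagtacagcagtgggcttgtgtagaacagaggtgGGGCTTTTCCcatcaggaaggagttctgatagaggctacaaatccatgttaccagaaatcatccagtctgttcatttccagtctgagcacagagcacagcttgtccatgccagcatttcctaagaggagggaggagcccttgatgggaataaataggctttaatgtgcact
Lrg1: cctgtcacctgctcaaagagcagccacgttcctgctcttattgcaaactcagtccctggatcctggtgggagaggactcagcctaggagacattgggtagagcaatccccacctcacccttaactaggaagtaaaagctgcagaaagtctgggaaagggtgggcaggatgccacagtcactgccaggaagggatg
A C/EBP match was present in 6 of the 8 genes with an entry (Saa1, Saa2, Saa3, Lcn2, Ptx3 and Serpina3f), while 9.56% of all 32851 promoter windows held one. The NF-kB letters occurred in Serpina3n, against 1.41% of all windows, and the STAT letters in Serpina3f, against 7.02%. In Saa1 and Saa2 the C/EBP match TTGCACAA was shared, and 94.8% of the aligned bases of the 250-base windows were identical. By contrast, Saa1 and Saa3 were identical at 52.2% of aligned positions, and Serpina3n and Serpina3f at 63.0%. The Lrg1 window held none of the 3 motifs. These matches describe letters and are not evidence of binding.

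The libraries held 14188832 to 17238919 counts on genes in pancreas and 20825177 to 27928097 in adipose tissue. Values are counts per 1000000 (CPM) after TMM scaling within a tissue. A gene was called at a fold change of 1.5 or more with an adjusted p below 0.05 (edgeR's quasi-likelihood test, Benjamini-Hochberg). Acinar genes took 81.3% and 82.8% of counts in control pancreas and 61.4% to 63.9% in OA-AP pancreas. They were near 0 in adipose tissue except in control replicate 2 (1.07%). Adipocyte markers summed to 36198 to 45905 CPM in adipose tissue and to at most 273 CPM in pancreas. In bulk tissue, fewer cells of a type and less RNA per cell cannot be told apart. Strand setting and annotation release of the counting are not given in the sources used here, and reads of Saa1 and Saa2, or of Serpina3 paralogs, may have been divided between near copies. No exon of another annotated gene overlapped an exon of a member in GENCODE M21.

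The 10 genes were a trace of the control pancreas transcriptome and rose steeply in OA-AP. Their share of counts was 0.000741% and 0.000695% in controls and 0.256%, 0.191% and 0.316% in OA-AP. In adipose tissue they were already abundant, at 0.405%, 0.356% and 0.258% of counts in controls, and reached 2.15%, 2.17% and 1.60% in OA-AP. In pancreas 7 members passed the filter on low counts and 6 of them were upregulated (Saa1, Saa3, Lcn2, Serpina3n, Lrg1 and Hp), where 16.2% of all 12884 tested genes were called higher. In adipose tissue all 10 passed the filter and 9 were upregulated, all but Orm1, where 12.1% of 15839 genes were called higher. No member was called lower, where 13.5% of tested genes were called lower in pancreas and 13% in adipose tissue. Over all genes tested, the median log2 fold change was 0.04 in pancreas and -0.01 in adipose tissue.

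**Figure D1:**
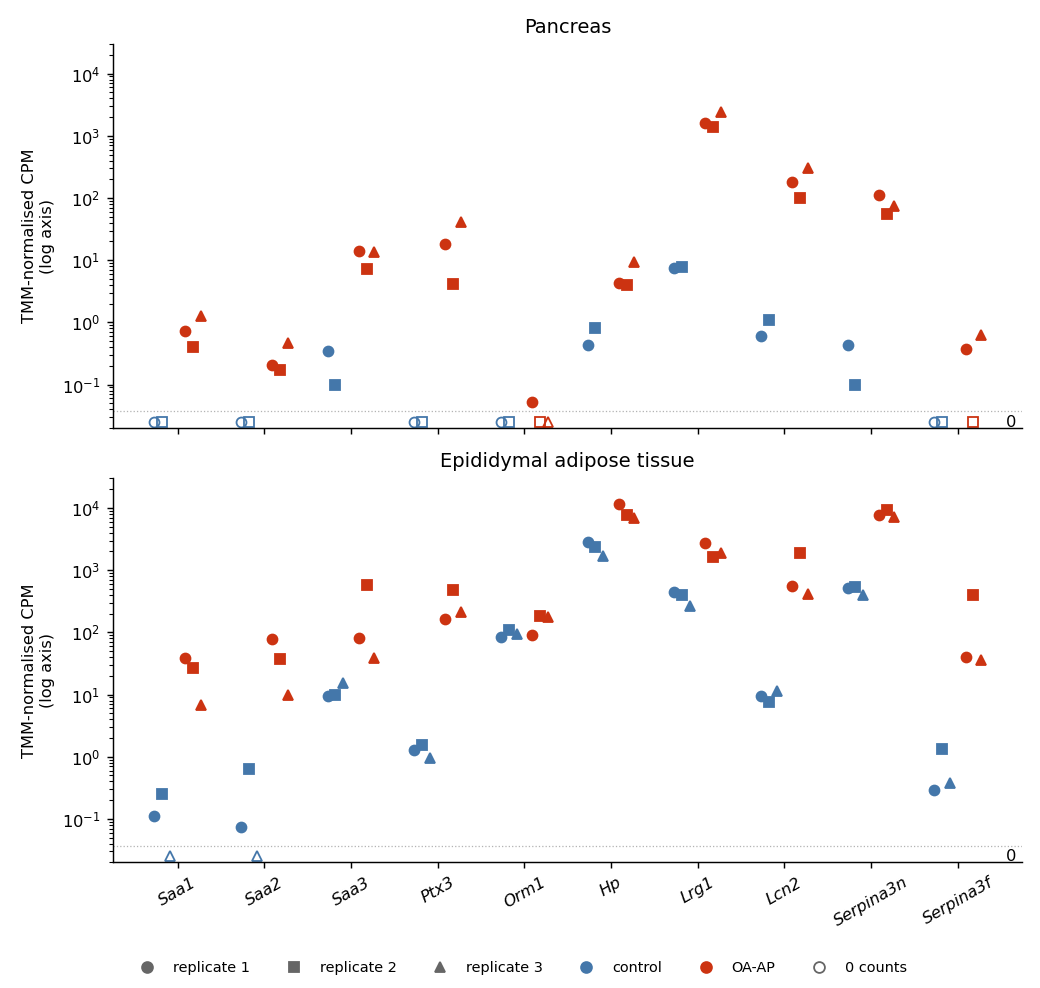
CPM of the 10 genes (log axis) in every library of pancreas and epididymal adipose tissue, with control in blue, OA-AP in red, the marker shape giving the replicate number and open symbols on the lowest line standing for 0 counts. In pancreas the OA-AP points of Lrg1 lie between 1378 and 2404 CPM above controls near 8, and in adipose tissue the groups of Orm1 overlap.

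Serum amyloid A proteins associate with high-density lipoprotein in plasma, and Saa1 and Saa2 encode the classical circulating forms made by the liver. Saa1 had 0 counts in both control pancreas libraries and 14, 7 and 24 counts (0.735, 0.40 and 1.26 CPM) in OA-AP. Measured against a floor of 3 counts per library this was at least 2.86-fold higher (adjusted p = 0.019, edgeR), and the call was lost without control replicate 1 (adjusted p = 0.101) or control replicate 2 (0.0956). All OA-AP libraries thus held a few Saa1 reads, near the detection limit. Saa2 had 0 counts in control pancreas and 4, 3 and 9 in OA-AP, too few to be tested.

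In adipose tissue both genes went from near 0 to clearly measured. Saa1 was at 0.111, 0.254 and 0 CPM in controls and at 38.7, 26.8 and 6.77 CPM in OA-AP (log2 fold change 7.66, SE 0.98, adjusted p = 0.00232). Saa2 was at 0.0738, 0.636 and 0 CPM in controls and at 78.5, 37.2 and 9.70 CPM in OA-AP (log2 fold change 7.56, SE 1.16, adjusted p = 0.00415). The groups did not overlap for either gene, and OA-AP replicate 1 was highest and replicate 3 lowest for both. The size of these changes rests on control libraries with at most 15 counts. Without control replicate 2 the log2 fold change was 8.69 for Saa1 and 10.002 for Saa2, without control replicate 3 it was 7.04 and 6.93, and without OA-AP replicate 1 that of Saa2 was 6.73.

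Saa3, an inducible form expressed outside the liver in macrophages, adipocytes and epithelia, had counts in every library. In pancreas it was at 0.343 and 0.0997 CPM in controls, from 4 counts and 1 count. OA-AP pancreas held 14.1, 7.15 and 13.7 CPM, an increase of 5.62 on the log2 scale (SE 0.56, adjusted p = 0.00047, edgeR). Without control replicate 1 the increase was 6.77. Every OA-AP library lay at least an order of magnitude above the controls. In adipose tissue Saa3 was at 9.45, 9.66 and 15.6 CPM in controls and at 82.3, 583 and 38.3 CPM in OA-AP. The groups did not overlap, but OA-AP replicate 2 was 15.2 times as high as replicate 3. The log2 fold change was 4.34 (SE 1.06, adjusted p = 0.02), and the call was lost without each control library in turn (adjusted p = 0.071, 0.063 and 0.0598 without replicates 1, 2 and 3). Without OA-AP replicate 2 the log2 fold change was 2.38 with a smaller error (SE 0.38, adjusted p = 0.00631). Saa4, the constitutive family member, was at 0 in all pancreas libraries and rose in adipose tissue from 0.0547 ± 0.0654 to 1.62 ± 1.04 CPM (SD, n = 3 and 3, adjusted p = 0.00631).

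Ptx3 encodes a long pentraxin that binds microbes, complement components and matrix, and it is induced by IL-1, TNF and Toll-like receptor signals in myeloid, endothelial and stromal cells. It had 0 counts in control pancreas and reached 18.2, 4.12 and 41.4 CPM in OA-AP. All OA-AP libraries were above the controls, by at least 76.3-fold on average against the floor, yet the spread among them was 10.1-fold and the gene was not called (adjusted p = 0.0773). It was called without OA-AP replicate 2 (adjusted p = 0.00749) and by DESeq2 (adjusted p = 8.01e-06). Without OA-AP replicate 3 the adjusted p was 0.268. In adipose tissue Ptx3 went from 1.29, 1.53 and 0.953 CPM to 167, 481 and 211 CPM, with no overlap. The log2 fold change was 7.84 (SE 0.55, adjusted p = 0.00041) and stayed at 7.24 without OA-AP replicate 2, the highest library. Crp, a short pentraxin of the same family, was at 0.620 ± 0.392 CPM in control and 0.847 ± 0.245 CPM in OA-AP pancreas (SD, n = 2 and 3) and was not called.

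Haptoglobin, encoded by Hp, captures free haemoglobin and is expressed by hepatocytes, adipocytes and maturing neutrophils. Control adipose tissue expressed it strongly, at 2797, 2349 and 1664 CPM, and OA-AP adipose tissue at 11664, 7734 and 6860 CPM. The lowest OA-AP library was above the highest control, and the log2 fold change was 1.95 (SE 0.28, adjusted p = 0.00279). Pancreas held far less, 0.429 and 0.798 CPM in controls and 4.25, 4.00 and 9.52 CPM in OA-AP (log2 fold change 3.28, SE 0.58, adjusted p = 0.00457). The controls had 5 and 8 counts, and the pancreas call was lost without control replicate 1 (log2 fold change 2.89, adjusted p = 0.0655).

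Orm1 encodes orosomucoid, a lipocalin that carries basic drugs in plasma and modulates leukocytes. It was the member with the least change. Adipose tissue held 85.2, 108 and 93.8 CPM in controls and 90.1, 186 and 177 CPM in OA-AP. OA-AP replicate 1 lay within the control range and replicates 2 and 3 above it. The log2 fold change was 0.66 (SE 0.27, adjusted p = 0.0966), so the gene was not called, although it was without OA-AP replicate 1 (log2 fold change 0.93, adjusted p = 0.00549) and by DESeq2 (adjusted p = 0.0403). Its paralogs Orm2 and Orm3 were not called in adipose tissue either, with log2 fold changes of 0.38 (SE 0.40) and -0.49 (SE 0.26). In pancreas Orm1 had 1 count in all 5 libraries together.

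Lcn2 encodes lipocalin 2, which withholds iron from bacteria by binding their siderophores and is released from neutrophil granules and injured epithelia. Pancreas held 0.601 and 1.10 CPM in controls and 178, 101 and 306 CPM in OA-AP. The increase was 7.86 on the log2 scale (SE 0.74, adjusted p = 0.00126), and every OA-AP library was far above both controls. Adipose tissue held 9.48, 7.5 and 11.6 CPM in controls and 552, 1911 and 410 CPM in OA-AP (log2 fold change 6.65, SE 0.73, adjusted p = 0.00148). OA-AP replicate 2 stood above the others, and without it the log2 fold change was 5.66 (SE 0.23, adjusted p = 0.000108). Slc22a17, reported as a lipocalin 2 receptor, fell in pancreas from 22.2 ± 2.40 to 3.28 ± 1.63 CPM (SD, n = 2 and 3, adjusted p = 0.00198). In adipose tissue its log2 fold change of -0.52 (SE 0.12) did not reach the fold threshold.

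Lrg1 encodes leucine-rich alpha-2-glycoprotein, a secreted protein that modifies TGF-beta signalling in endothelium and is a target of STAT3. It was the most abundant member in pancreas, at 7.55 and 7.88 CPM in controls and 1618, 1378 and 2404 CPM in OA-AP. The increase was 7.87 on the log2 scale (SE 0.35, adjusted p = 3.12e-05), the smallest adjusted p of the members in pancreas. In adipose tissue it was at 438, 397 and 270 CPM in controls and at 2734, 1653 and 1911 CPM in OA-AP, without overlap (log2 fold change 2.51, SE 0.26, adjusted p = 0.000997). The TGF-beta receptors Tgfbr1 and Tgfbr2 rose in pancreas by 1.02 and 1.46 on the log2 scale (adjusted p = 0.00487 and 0.01, edgeR). Acvrl1 and Eng, from the same list of receptors and partners, were not called there (-0.29 and -0.35, adjusted p = 0.332 and 0.191).

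Serpina3n and Serpina3f belong to the expanded murine counterpart of alpha-1-antichymotrypsin, with Serpina3n known to inhibit leukocyte elastase and granzyme B. Serpina3n was at 0.429 and 0.0997 CPM in control pancreas, from 5 counts and 1 count, and at 113, 55.6 and 75.3 CPM in OA-AP. The log2 fold change was 8.16 (SE 0.57, adjusted p = 0.000238), 9.57 without control replicate 1 and 7.54 without control replicate 2. Adipose tissue held 522, 529 and 400 CPM in controls and 7738, 9276 and 7193 CPM in OA-AP. These OA-AP libraries were the most even of all members, with a 1.29-fold range, and the log2 fold change was 4.06 (SE 0.21, adjusted p = 0.000179).

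Serpina3f had 0 counts in control pancreas and 7, 0 and 12 in OA-AP, so its groups overlapped and it was not tested. In adipose tissue it went from 0.295, 1.36 and 0.374 CPM to 40.3, 399.7 and 35.4 CPM (log2 fold change 7.92, SE 1.39, adjusted p = 0.00656). OA-AP replicate 2 was 11.3 times as high as replicate 3, and without it the log2 fold change was 5.86 (SE 0.49), while without control replicate 2 it was 8.88. In adipose tissue Serpina3m went from 5.03 to 405 CPM on average (adjusted p = 0.000402) and Serpina3c from 215 to 1074 CPM (adjusted p = 0.00139), while Serpina3j was lower (adjusted p = 0.0276). In pancreas Serpina3m had 0 counts in controls and 9.24, 6.24 and 8.89 CPM in OA-AP, at least 29.2-fold higher.

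**Figure D2:**
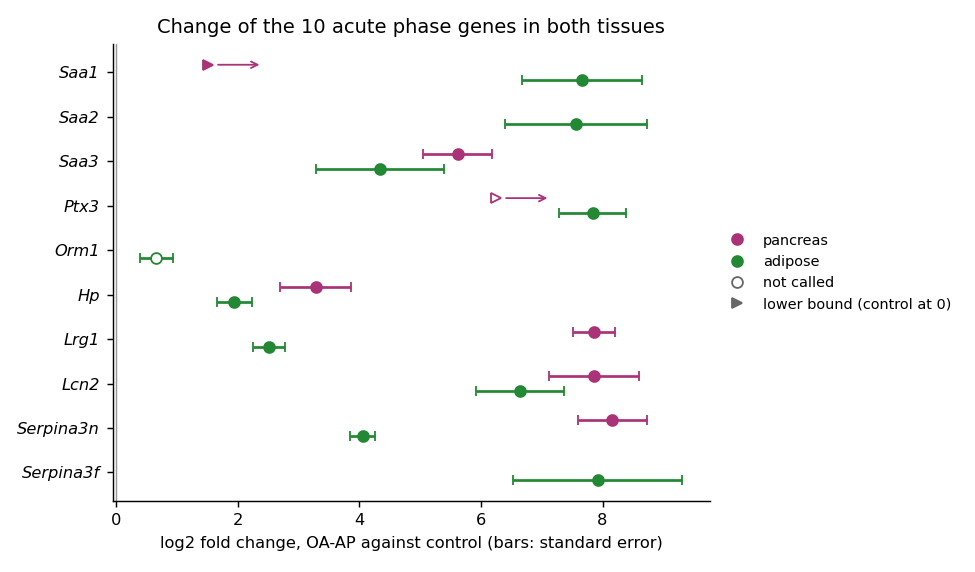
Log2 fold change of OA-AP against control for each gene (points, with standard errors as bars) in pancreas and adipose tissue. Open symbols were not called, triangles with arrows are lower bounds for genes with 0 counts in control pancreas, and the untested Saa2, Serpina3f and Orm1 have no pancreas point. Among the genes with counts in control pancreas, Lrg1 and Serpina3n show the widest gap between tissues, at 7.87 against 2.51 and 8.16 against 4.06.

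Scaled per kilobase of the gene length in the deposited table, the members differed greatly in level, and the leading gene differed between tissues. The summed level of the 10 genes was 6.20 and 6.60 CPM per kilobase in control pancreas and 1287, 1052 and 1888 in OA-AP. Lrg1 made up 86.5% and 84.8% of it in controls and 89.3%, 93.1% and 90.4% in OA-AP, so it led in every pancreas library. Hp came next in controls (4.31% and 7.53%, Lcn2 3.69% and 6.34%), and Lcn2 came next in OA-AP with 5.29%, 3.68% and 6.18%. In adipose tissue the sum was 2424, 2148 and 1554 CPM per kilobase in controls and 13439, 12056 and 9614 in OA-AP. Hp made up 71.9%, 68.1% and 66.7% of it in controls and 54.0%, 39.9% and 44.4% in OA-AP. Serpina3n went from 10.4%, 11.9% and 12.5% to 27.9%, 37.3% and 36.2%. Neither range overlapped between groups.

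**Figure D3:**
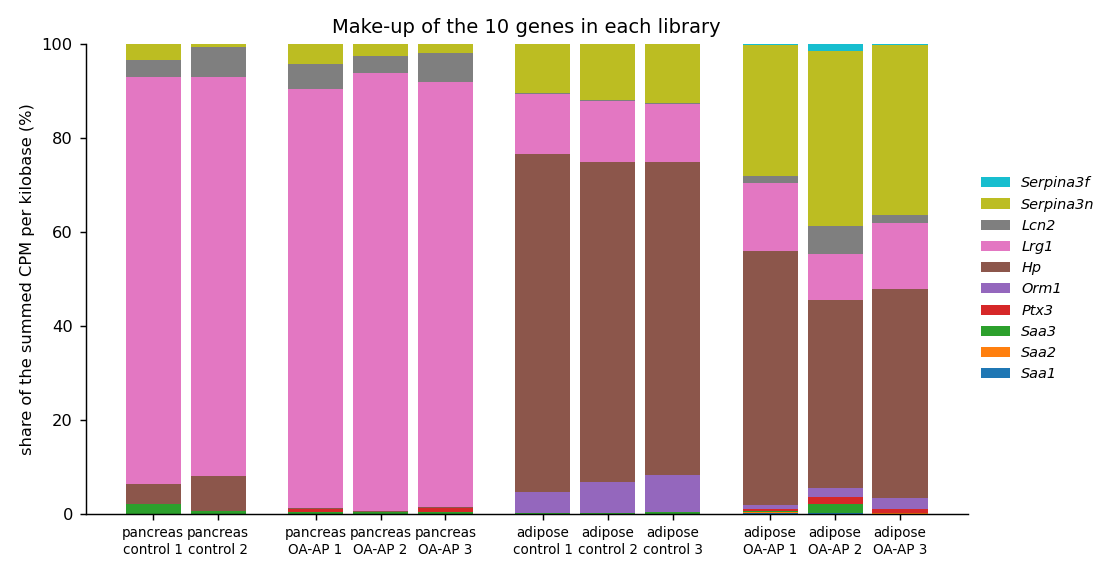
Share of each gene in the summed CPM per kilobase of the 10 genes, as stacked bars that reach 100% in each library. Lrg1 fills 84.8% to 93.1% of every pancreas bar, and in adipose tissue the Serpina3n part grows from 10.4% to 12.5% in controls to 27.9% to 37.3% in OA-AP.

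Whether the change differed between tissues was tested with the tissue by condition term over all 11 libraries. Of the 17046 genes tested, 20.6% were called, and 10.2% of the 17046 were called with a negative difference. Among the 5 members with counts in control pancreas, 2 were called, as Serpina3n and Lrg1 rose by a larger factor in pancreas than in adipose tissue. On a scale shared by both tissues, mean Serpina3n went from 0.556 to 173 CPM in pancreas and 257 to 4347 CPM in adipose tissue. Mean Lrg1 went from 16.1 to 3836 CPM in pancreas and from 196 to 1127 CPM in adipose tissue. On the log2 scale, the adipose change minus the pancreas change was -4.15 for Serpina3n (SE 0.61, adjusted p = 0.000806) and -5.37 for Lrg1 (SE 0.48, adjusted p = 4.6e-05). For Serpina3n it was -5.60 without pancreas control replicate 1 and -3.49 without pancreas control replicate 2. The same difference was -1.22 for Lcn2 (SE 1.18, adjusted p = 0.526), -1.36 for Hp (SE 0.67, adjusted p = 0.179) and -1.30 for Saa3 (SE 2.73, adjusted p = 0.802), none of them called. Without adipose OA-AP replicate 2, Saa3 differed by -3.34 (adjusted p = 0.0348) and Lcn2 by -2.28 (adjusted p = 0.0579), and without pancreas control replicate 1 Saa3 differed by -2.50 (adjusted p = 0.803). With library totals in place of TMM, Hp differed by -2.16 (adjusted p = 0.0111), a scaling that moves the median of all genes by -0.82. Whether a pancreas and an adipose sample with the same number share a mouse is not stated in the labels, and the fit treated them as independent. Their deviations from the group means correlated at -0.0505 to 0.130 over genes. For the other 5 genes, at 0 counts in both pancreas controls, the term has no interpretable size.

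Control tissues differed in the same direction for every member that could be tested. On a scale shared by both tissues, 7 members passed the filter and all 7 were higher in control adipose tissue than in control pancreas, where 31.3% of 16431 genes were called higher. The log2 difference was 9.89 for Hp (SE 0.42), 8.78 for Serpina3n (SE 0.34), 3.65 for Saa3 (SE 0.56), 3.59 for Lrg1 (SE 0.25) and 1.53 for Lcn2 (SE 0.37), with adjusted p-values from edgeR of at most 0.00755. Orm1 was at least 87.6-fold and Ptx3 at least 1.15-fold higher. Both had 0 counts in control pancreas, so only bounds are given. That of Ptx3 lies below the 1.5-fold threshold, so its call rests on a fitted size that the counts do not fix. Lcn2 was no longer called without pancreas control replicate 1 (1.18, adjusted p = 0.0662), and without that library the difference was 4.89 for Saa3 and 10.28 for Serpina3n, which was 8.16 without pancreas control replicate 2. Library totals in place of TMM raise the median of all genes by 2.47, with no change of direction. The order of the OA-AP tissues depended on the scaling and was not tested. Lrg1 was at 3435, 2931 and 5142 CPM in pancreas against 1455, 904 and 1023 CPM in adipose tissue on the shared scale, without overlap. On library totals it was at 2130, 1698 and 2667 CPM against 2533, 1607 and 1810 CPM, and the tissues overlapped. Lcn2 overlapped on the shared scale, at 379, 216 and 654 CPM in pancreas and 294, 1045 and 219 CPM in adipose tissue, and on library totals was lower in every pancreas library, at 235, 125 and 339 CPM against 511, 1857 and 388 CPM.

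The members did not all peak in the same OA-AP library. In adipose tissue replicate 2 was highest for 6 members (Saa3, Lcn2, Serpina3n, Serpina3f, Orm1 and Ptx3) and replicate 1 for 4 (Saa1, Saa2, Lrg1 and Hp). The summed level of 16 neutrophil markers was alike in these libraries, at 204, 189 and 216 CPM, and was lowest in replicate 2. Il6, the main inducer of hepatic acute phase genes, was at 10.8, 4.09 and 16.4 CPM, and Il1b at 35.1, 6.35 and 52.9 CPM, also lowest in replicate 2. Cebpd, a C/EBP factor, was at 81.5, 213 and 91.7 CPM, highest in replicate 2, where Nfkbia was also highest. The C/EBP factor Cebpb, at 116, 82.4 and 120 CPM, was lowest in replicate 2, as were Stat3 and Socs3. In pancreas every member counted in all 3 OA-AP libraries was lowest in replicate 2, and replicate 3 was highest for 7 members. There the neutrophil sum was 15.4, 3.72 and 105 CPM and Il6 0.735, 0.229 and 12.6 CPM, in the same order.

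**Figure D4:**
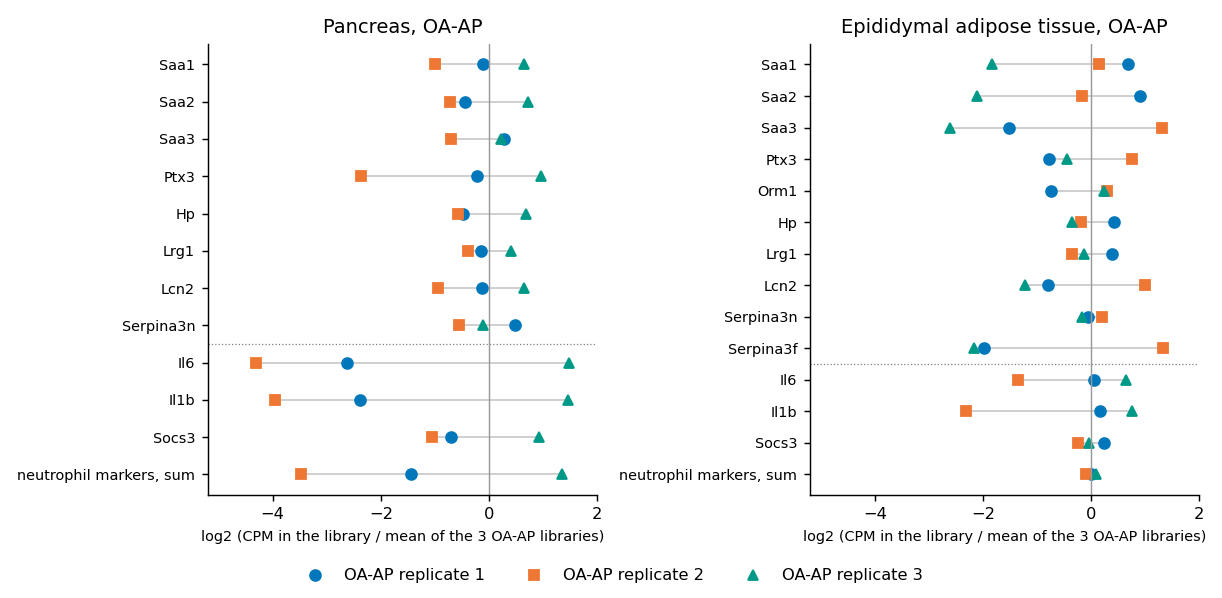
CPM of each OA-AP library relative to the mean of the 3 OA-AP libraries of the tissue (log2), for members counted in all of them and, below the dotted line, for Il6, Il1b, Socs3 and the summed neutrophil markers. Replicate 2 lies lowest for every pancreas gene shown, and in adipose tissue it lies highest for Saa3, Ptx3, Lcn2 and Serpina3f but lowest for Il6 and Il1b.

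Because Lcn2, Hp, Lrg1 and Ptx3 are also neutrophil products, marker levels are given beside them. In pancreas none of the 7 tested neutrophil markers of 16 was called by edgeR, 1 had an unadjusted p under 0.05 and DESeq2 called 5. Without OA-AP replicate 2, edgeR called 4, and without replicate 3 it called 1. Their sum went from 2.06 and 1.99 CPM to 15.4, 3.72 and 105 CPM, S100a9 and S100a8 being the most abundant and Prtn3 at 0. In OA-AP replicate 2, with a neutrophil sum of 3.72 CPM, Lrg1 was at 1378 CPM and Lcn2 at 101 CPM. In adipose tissue 8 of 11 tested neutrophil markers rose and 3 fell, and the sum went from 29.5, 40.5 and 37.3 to 204, 189 and 216 CPM. Hepatocyte markers summed to 27.6 and 27.1 CPM in control and 22.4, 16.9 and 25.3 CPM in OA-AP pancreas, where Alb was at 0.343 and 0.299 CPM in control and 3.10, 0.686 and 0.784 CPM in OA-AP and was not called. In adipose tissue the hepatocyte list summed to 6626, 6362 and 9952 CPM in control and 6382, 3095 and 2710 CPM in OA-AP, nearly all of it Cyp2e1, which was not called (log2 fold change -0.92, adjusted p = 0.0892). Of 5 tested genes of that list Serpina1a was called lower (-2.28) and Ahsg higher (1.58). Alb was at 15.7, 16.0 and 18.8 CPM in control and 12.0, 17.7 and 16.1 CPM in OA-AP adipose tissue. The part of neutrophils and hepatocytes in the members' changes was not tested.

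In pancreas 26 of 45 tested acinar genes were called lower and 1 higher, the ductal keratins Krt8 and Krt18 rose (log2 fold change 2.34 and 1.69) and the sums of macrophage, fibroblast, endothelial, mesothelial and lymphocyte markers overlapped between groups. Adipocyte genes summed to 48.2 and 64.2 CPM in control and 164, 136 and 273 CPM in OA-AP pancreas, led by the lipase gene Pnpla2 (log2 fold change 2.80, adjusted p = 0.00195), whereas Fabp4 was not called (0.64, adjusted p = 0.208). Of the 10 adipocyte genes, 4 passed the filter in pancreas and 2 of them were called higher. The remaining genes of the list, among them Adipoq and Plin1, were at or below 0.229 CPM in every pancreas library. In adipose tissue the adipocyte, mesothelial, endothelial and lymphocyte sums overlapped between groups. Macrophage sums were 981, 1228 and 1011 CPM in control and 1342, 1289 and 1817 CPM in OA-AP. Singly, 7 of 10 fibroblast markers and 5 of 9 tested lymphocyte markers fell. Lymphocyte sums were 212, 514 and 87.0 CPM in control and 44.3, 110 and 25.4 CPM in OA-AP. Epididymis markers were at or below 0.257 CPM in every library. The part of these lists in the members' changes was not tested.

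The list of inducing cytokines and receptors also holds the IL-1 inhibitors Il1rn, a receptor antagonist, and Il1r2, a decoy receptor. Of 18 genes tested in pancreas 9 rose and none fell, nor had a negative change with an unadjusted p under 0.05 by edgeR. Their median log2 fold change was 1.46 against 0.04 for all genes. Of 23 tested in adipose tissue 17 rose, Il1rn and Il1r2 among them, and none fell (median 1.79 against -0.01). There 1 had a negative change and an unadjusted p under 0.05. DESeq2 called 10 and 18 higher and 0 lower. The receptor Il22ra1 was the clearest in pancreas, at 14.8 and 14.9 CPM in controls and 85.7, 79.1 and 84.2 CPM in OA-AP (adjusted p = 4.28e-05). The receptor chains Il6ra, Il6st and Osmr rose there by 2.32, 1.43 and 2.29 on the log2 scale. Il6 and Il1b were not called in pancreas (adjusted p = 0.188 and 0.312) and rose in adipose tissue by 6.06 and 5.39 on the log2 scale (adjusted p = 0.00156 and 0.00438). The decoy receptor Il1r2 and the signalling receptor Il1r1 rose in adipose tissue by 6.36 and 3.39 on the log2 scale. Il1r1 was not called in pancreas (adjusted p = 0.054), nor Il6st in adipose tissue, where its log2 fold change was 0.58. Without control replicate 2 the count in pancreas was 5.

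Among signal transducers and transcription factors 11 of 24 rose in pancreas (median 0.65), and 12 of 23 rose and 2 fell in adipose tissue (median 0.65). Stat3, the transducer of IL-6, rose from 21.0 ± 1.42 to 178 ± 50.4 CPM in pancreas (SD, n = 2 and 3, adjusted p = 0.000252) and from 210 ± 14.6 to 540.0 ± 85.5 CPM in adipose tissue (n = 3 and 3, adjusted p = 0.00107). Socs3, its feedback inhibitor, rose by 4.14 and 3.87 on the log2 scale, and Cebpb and Cebpd rose in both tissues. Nfkbiz, a co-activator of NF-kB on secondary response genes, rose by 0.73 and 0.78, and Nfkbia was not called in either tissue. Nr3c1, the glucocorticoid receptor, fell by 1.01 in pancreas and by 0.95 in adipose tissue on the log2 scale, and Cebpa fell in adipose tissue. Without pancreas control replicate 1 or 2 the transducers called in pancreas were 5 or 6, and with library totals 21.

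Of 25 tested positive acute phase genes outside the 10, 12 rose and 1 fell in pancreas, and of 28 in adipose tissue 12 rose and 2 fell. Mt1, a metallothionein, rose in both, from 349 and 601 CPM to 2918, 2199 and 3625 CPM in pancreas and from 369, 204 and 169 CPM to 7709, 6941 and 5555 CPM in adipose tissue. Ceruloplasmin (Cp) and Lbp rose in pancreas, and Timp1 in adipose tissue went from 5.02, 3.81 and 5.11 to 278, 172 and 308 CPM. Negative acute phase genes, which fall in the liver during the response, were mostly not called, as 1 of 6 fell in pancreas (Igf1) and 1 of 7 rose in adipose tissue (Ahsg). Of the receptors and partners of the members, 4 of 17 rose and 1 fell in pancreas, and 9 of 20 rose and 1 fell in adipose tissue, among them Hmox1, the haem oxygenase, and Fpr1 and Fpr2, formyl peptide receptors. Without control replicate 1 or 2 the positive acute phase genes called in pancreas were 4 or 5, the receptors and partners 3 or 1, and Igf1 was not called. In adipose tissue the receptors and partners called were 6 without control replicate 2, and Ahsg was not called without control replicate 1 or 3 or OA-AP replicate 1 or 3.

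**Figure D5:**
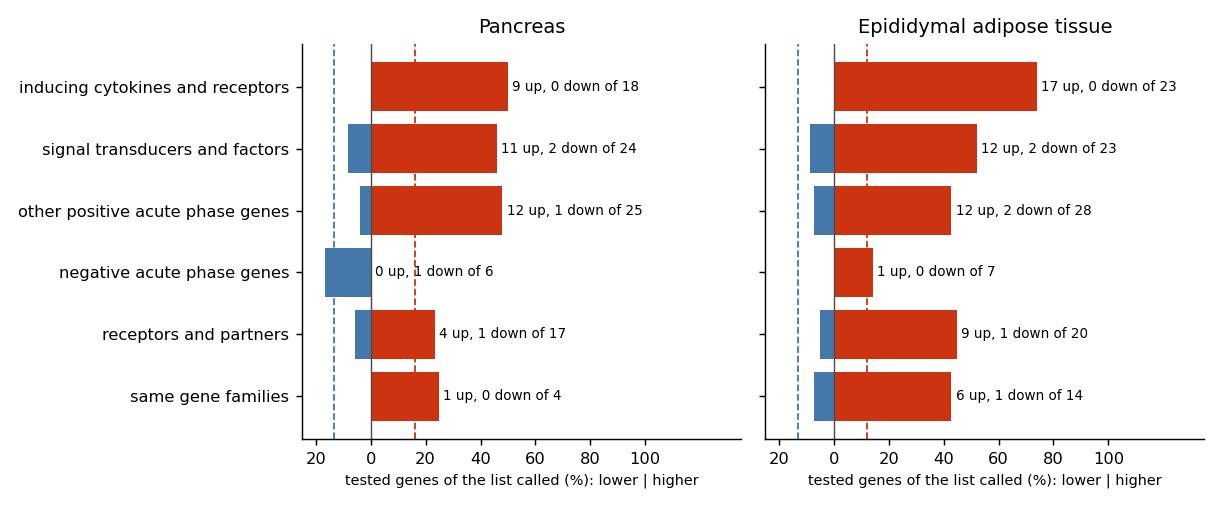
Share of the tested genes of each pathway list called higher (red, to the right) or lower (blue, to the left) in OA-AP, with dashed lines at the share of all tested genes called higher and lower in that tissue. Inducing cytokines and receptors, a list that also holds Il1rn and Il1r2, stand at 9 of 18 in pancreas and 17 of 23 in adipose tissue. Of all genes 16.2% and 12.1% were called higher.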

How the data were processed

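Pancreas (2 control, 3 OA-AP) and epididymal adipose tissue (3 and 3) were profiled by bulk RNA sequencing. The authors trimmed reads with Trim Galore 0.6.6, checked them with fastp 0.20.1, mapped them to GRCm38 with STAR, counted them per gene with featureCounts 2.0.1 and deposited whole-number counts without normalization. Annotation release and strand setting are not given in the sources used here. Groups came from the sample labels.

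Genes were filtered with filterByExpr, scaled with TMM and tested with edgeR 4.0.16 (quasi-likelihood, robust) in R 4.3.3, each tissue apart, and all 11 libraries together for the tissue by condition term and the control tissues. Calls needed an adjusted p below 0.05 (Benjamini-Hochberg, over every tested gene) together with a change of 1.5-fold or more. Standard errors were derived from the F statistic, as log2 fold change over its root. A gene with 0 counts in controls was given as a lower bound against 3 counts per library. Reads carry no molecular identifiers, and floors reflect counting error alone. The fits were tested on simulated data.

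The members, gene lists and tests were chosen with earlier results of these data known. Named genes were the 10 members, up to 4 called genes with the smallest p per pathway list and tissue, a fixed set of regulators (Il6, Il6st, Il1b, Il1r1, Osmr, Stat3, Socs3, Cebpb, Cebpd, Nfkbiz, Nfkbia and Slc22a17) and the most abundant genes of each cell type list. Crp, Orm2, Orm3, Saa4, Serpina1a, Serpina3j, Cebpa, Fpr2, Prtn3, Adipoq, Plin1, Il1rn and, in pancreas, Nr3c1, Acvrl1 and Eng were named after their values were seen. Protein sequences were not used here, and a result for another gene is not reported here. Alternatives were DESeq2 1.42.0, its size factors, library totals, TMM without acinar genes, no filter, 10 counts per gene in all samples, a threshold of 2-fold or of no fold, omission of single samples and a replicate block.

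Same-numbered control and OA-AP samples did not deviate together (correlation 0.00147 and -0.0410 in pancreas, -0.00580, 0.0562 and -0.163 in adipose tissue). The numbers are not known to pair these samples, and so few libraries cannot exclude a pairing. Replicates differed by more than counting noise (chi-square per degree of freedom at least 7.56). The labels do not say that replicates are separate mice, and p-values measure the spread between these samples.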

Additional observations from a re-analysis of the deposited data

Results flagged for a closer look

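The changes of Serpina3n and Lrg1 differed between the tissues by a test of the difference itself. The adipose change minus the pancreas change was -4.15 for Serpina3n (adjusted p = 0.000806) and -5.37 for Lrg1 (adjusted p = 4.6e-05) on the log2 scale, by edgeR's tissue by condition term. Both rose in every OA-AP library of both tissues. The ranges over the alternatives were -5.60 to -3.49 for Serpina3n and -6.20 to -5.10 for Lrg1, with the largest adjusted p at 0.00897 and 0.00137. Control pancreas held 6 counts of Serpina3n in all and 167 of Lrg1.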

How the results depend on the processing

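No member that was checked changed direction under an alternative in any of the 4 comparisons. For tissue by condition, only the members with counts in control pancreas were checked. In pancreas and between control tissues, only those that passed the filter in the main fit were checked. With 10 counts required in every sample only Lrg1 was tested in the pancreas, tissue by condition and control tissue comparisons, so 1 member was called in each, while 6 were called in adipose tissue. Leaving out 1 sample gave 4 to 7 called members in pancreas, 8 to 10 in adipose tissue, 2 to 3 for tissue by condition and 6 to 7 between control tissues. The replicate block, built on numbers not known to pair these samples, gave 7, 8, 2 and 7. It called Ptx3 in pancreas (adjusted p = 1.58e-06) and lost Saa3 in adipose tissue (adjusted p = 0.0543), and without the filter Saa3 was also lost (adjusted p = 0.115). The cause was not tested. Library totals shifted the median of all genes by 0.71 in pancreas and -0.15 in adipose tissue, and the share of calls that were higher was then 92.0% in place of 54.5% and 32.1% in place of 48.1%, with 6 and 9 members called. For tissue by condition that share was 5.73% in place of 50.6%, with 3 members called, and between control tissues 93.1% in place of 54.4%, with 7 called. Over all genes, leaving out pancreas control replicate 1 or 2 gave 1687 or 1495 calls in place of 3834. Depth limits Saa1, Saa2, Serpina3f, Orm1 and Ptx3 in control pancreas, where 0 counts allow up to 0.257 and 0.299 CPM.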
